A study of Mus musculus with 8 samples.

Results

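Klf6 peaks at ion channel and neurotransmitter receptor genes were examined in primary mouse oligodendrocyte progenitors (OLP) and immature oligodendrocytes (iOL). Genes were taken by symbol: potassium (Kcn), sodium (Scn) and calcium (Cacn) channels, and receptors for glutamate (Gria, Grik, Grin, Grid, Grm), GABA (Gabr), glycine (Glra), acetylcholine (Chrn, Chrm) and serotonin (Htr). A gene was counted when a peak list named it as the gene of a peak between 50 kb upstream and 5 kb downstream of its transcription start site (TSS), which is here called a listed peak. Of the 3888 genes with a listed peak in any sample, 32 were channel or receptor genes, and these held 61 peaks at 48 sites. They were 32 of the 223 protein-coding genes of these families in RefSeq (14.3%), while 16.0% of all 21900 protein-coding RefSeq genes had a listed peak. The family genes were matched by symbol alone and all genes by symbol or any synonym, which can raise the second share.

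All cells were C57BL/6 OLP from the cortex of mice at the end of the first postnatal week, immunopanned for PDGFRa after removal of microglia, and grown in medium with PDGF-AA at 10 ng/ml and bFGF at 20 ng/ml. OLP were untreated, and iOL had received the thyroid hormone T3 at 40 ng/ml for 18 h. Each stage had 2 biological replicates, A and B, precipitated with a rabbit polyclonal antibody to Klf6, and the 4 samples held 5777 to 12451 peaks with 105081 to 152149 tags (sequenced fragments within peaks). Peak lists hold no expression values, so the cell types were not checked against their markers, and whether the channel and receptor genes were transcribed was not measured here.

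Voltage-gated channels open and close with the membrane potential, and ligand-gated receptors open when a transmitter binds. Both are best known from neurons, but OLP are unusual among glia in carrying voltage-gated sodium and potassium channels, receive synaptic input from axons through AMPA and GABA-A receptors, and lose much of this equipment as they mature. Klf6 is a zinc finger transcription factor of the Krüppel-like family, whose members bind GC-rich and CACCC-type sequences.

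The highest channel and receptor peaks lay over sequence that the genome holds in many copies, and in several cases peaks at unrelated genes held the same letters. An example is the OLP A peak at -49.4 kb of Grik2, a kainate receptor subunit (mm9, chr10:49557884-49558009, plus strand), and the OLP A peak at -37.1 kb of Kcns2, a modifier subunit of voltage-gated potassium channels (chr15:34729901-34730038, plus strand). Capitals mark a run of 29 bases that both peaks hold without a mismatch.
Grik2: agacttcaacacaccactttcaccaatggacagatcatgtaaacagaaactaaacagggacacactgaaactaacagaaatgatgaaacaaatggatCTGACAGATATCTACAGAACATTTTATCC
Kcns2: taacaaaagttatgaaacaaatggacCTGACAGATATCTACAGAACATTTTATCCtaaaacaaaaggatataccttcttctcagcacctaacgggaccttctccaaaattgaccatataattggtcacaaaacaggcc
The next sequence is the iOL A peak of the site with the highest fold in both iOL samples, upstream of Kcns2 (chr15:34728325-34728459, plus strand), with the 21 bases centred on its summit in capitals.
Kcns2: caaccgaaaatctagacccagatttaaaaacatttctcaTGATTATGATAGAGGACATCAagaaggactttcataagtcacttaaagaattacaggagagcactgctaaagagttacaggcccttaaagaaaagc
The last is the OLP B peak of the GABA-A subunit gene Gabra6 (chr11:42136405-42136560, plus strand), the one peak of all 61 within 2 kb of a start site, with the bases around its summit in capitals. Unlike the others it was unique in the genome.
Gabra6: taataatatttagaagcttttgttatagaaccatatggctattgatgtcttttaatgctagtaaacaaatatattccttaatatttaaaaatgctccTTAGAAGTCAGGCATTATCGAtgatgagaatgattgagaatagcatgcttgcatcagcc

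No difference between OLP and iOL in the number of channel and receptor genes could be called. OLP A had 17 of them with 23 peaks, OLP B 7 with 7 peaks, iOL A 17 with 20 peaks and iOL B 9 with 11 peaks. The replicates of a stage differed by more genes than the stage means did. The mean was 12 ± 7.07 genes in OLP and 13 ± 5.66 in iOL (SD, n = 2 each), a difference of -1 gene (OLP minus iOL; p = 1, two-sided exact permutation test). Set against all listed genes of the same sample, they made up 0.817% and 0.493% in OLP and 0.957% and 0.819% in iOL. Both iOL shares lay above both OLP shares, though those of iOL B and OLP A were nearly equal. The means were 0.655% ± 0.229 and 0.888% ± 0.0978 (SD, n = 2 each), and the exact permutation p of 0.333 is the smallest that 2 against 2 samples can give.

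**Figure D1:**
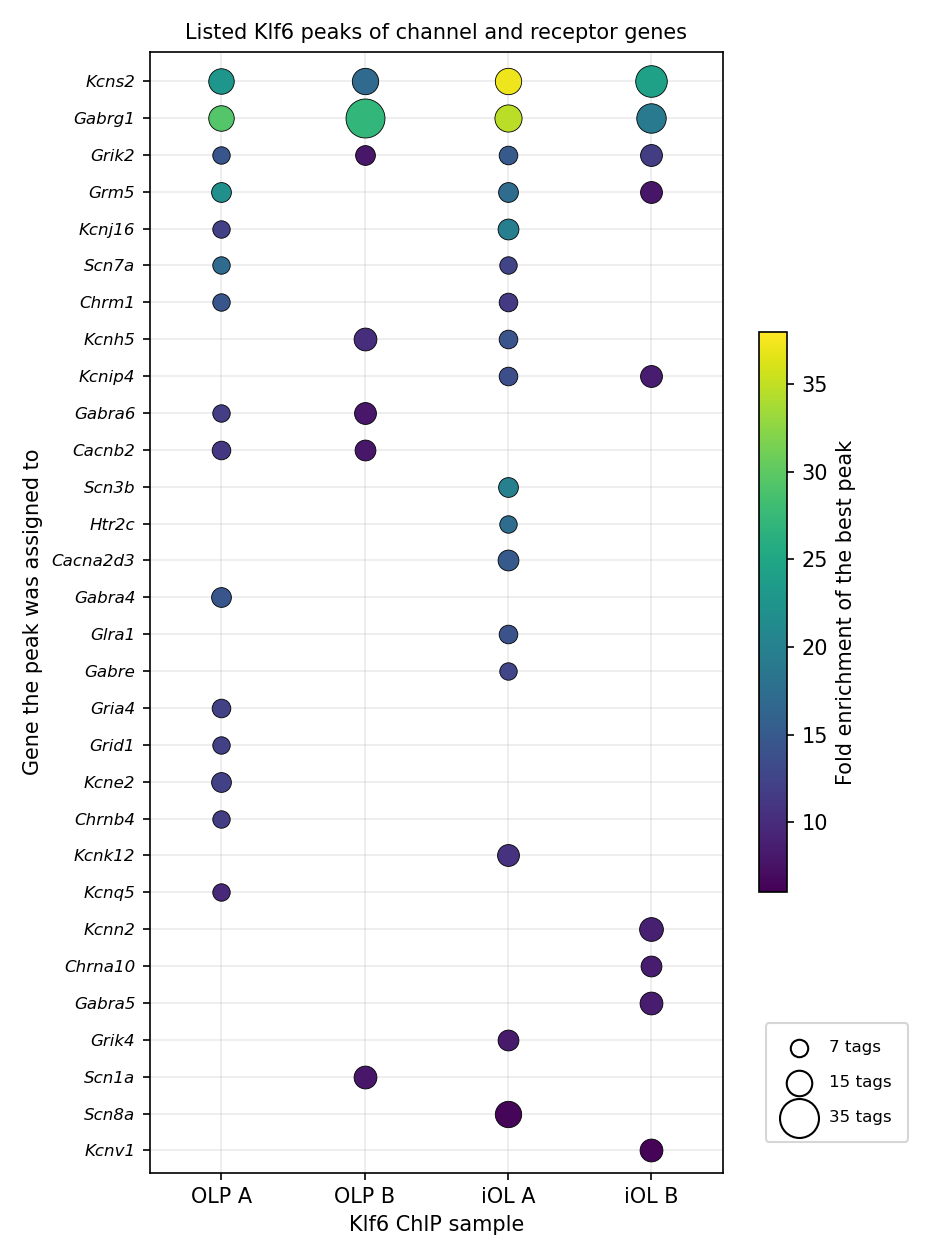
Each point is the best listed peak of a gene (rows) in a sample (columns), coloured by fold enrichment over background and sized by its number of tags, for 30 of the 32 genes. Kcns2, Gabrg1 and Grik2 have a point in all 4 samples, and most genes have one in 1 sample only.

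By gene symbol, 3 of the 32 genes (Kcns2, Gabrg1 and Grik2) had a listed peak in all 4 samples, 1 (Grm5) in 3, 7 in 2 and 21 in 1. The share in all 4 was 9.38% (95% Wilson interval 3.24 to 24.2, counting error only) beside 9.00% of all listed genes, and the share in 1 sample was 65.6% beside 63.9%. Recurrence was also counted by position. Peaks of different samples were taken as 1 site when at most 500 bp lay between them, and 43 of the 48 channel and receptor sites (89.6%, 77.8 to 95.5) were found in 1 sample, beside 76.7% of all 5480 listed sites. Only 2 sites, at Kcns2 and Gabrg1, were found in all 4 samples, which is 4.17% (1.15 to 14.0) beside 5.18% of all listed sites. The interval of the share in 1 sample begins just above the share of all listed sites, and that of the share in all 4 samples includes it. These intervals treat sites as independent and hold no spread between samples. They therefore do not show that channel and receptor sites recur less, which was not tested. With peaks over repeated sequence left out (more than 50% of their 32-base stretches at more than 1 place in the genome), 0 genes and 0 sites were found in all 4 samples. In the study's interval of -15 to +5 kb 0 genes were.

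**Figure D2:**
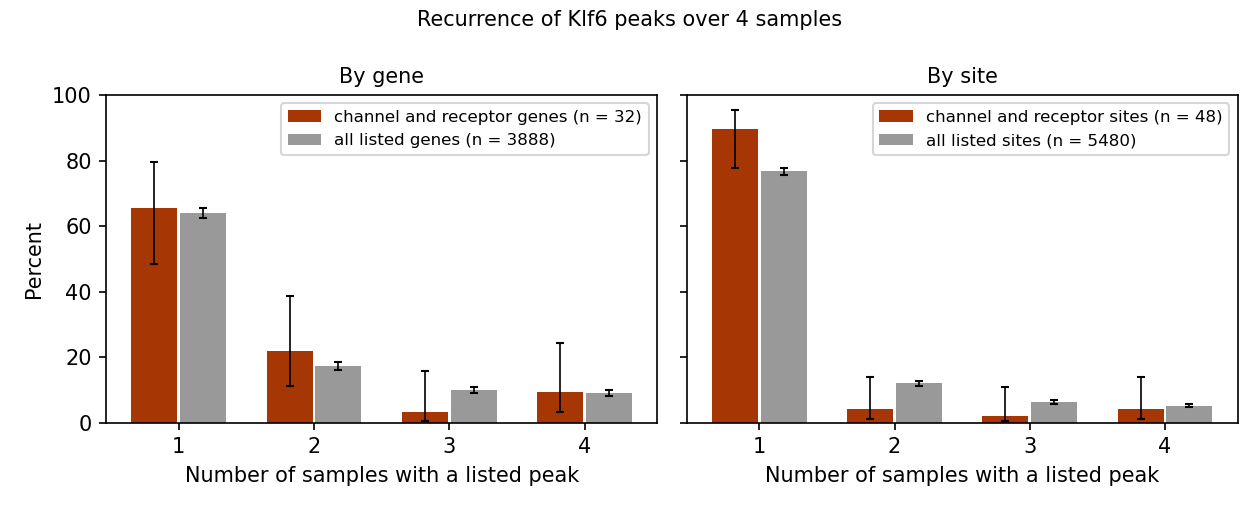
Percent of genes (left) and of sites (right) with a listed Klf6 peak in 1, 2, 3 or 4 samples, for channel and receptor genes and for all listed genes, with 95% Wilson intervals as error bars. By gene the bars in 1 sample are 65.6% and 63.9%, and by site 89.6% and 76.7%.

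Within a stage, most channel and receptor peaks were not found again by position. Of the 23 channel and receptor peaks of OLP A, 3 (13.0%, 4.54 to 32.1) had a peak of OLP B within 500 bp, where 20.9% of all listed OLP A peaks had one, and in the other direction 2 of the 7 OLP B peaks did. Of the 20 peaks of iOL A, 4 (20.0%, 8.07 to 41.6) were found again in iOL B beside 25.9% of all listed peaks, and 4 of the 11 iOL B peaks were found again in iOL A. All 4 shares were below those of the listed peaks as a whole, and all 4 intervals included them. These shares are 2 pairs of samples read in both directions, so they largely count the same matches and are not independent. Both OLP A peaks at Gabrg1 lay within 500 bp of the same OLP B peak. Samples of different stages shared similar numbers of peaks. In each iOL sample 5 of the 23 OLP A peaks and 2 of the 7 OLP B peaks were found again. Of the iOL A peaks, 5 of 20 were found again in OLP A and 3 in OLP B, and of the iOL B peaks 5 of 11 and 3.

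Among potassium channels, Kcns2 had the strongest peaks, and within each iOL sample its fold enrichment was the highest of all channel and receptor peaks, while in each OLP sample that of Gabrg1 was. Kcns2 encodes a silent voltage-gated subunit that forms channels only together with Kcnb subunits. Its main site, 38.7 kb upstream of the start (mm9, chr15:34728320-34728474, intergenic), had a fold enrichment over background of 22.9 with 15 tags in OLP A, 16.9 with 16 tags in OLP B, 37.2 with 16 tags in iOL A and 24.3 with 23 tags in iOL B. All 4 summits fell within 11 bp of each other, and in iOL A the peak ranked 229 of 10225 by fold enrichment. Tags were not normalised between samples, so heights are given side by side and were not tested between samples. A second Kcns2 site at -37.1 kb had peaks in OLP A (fold 14.6, 8 tags) and iOL B (fold 11.6, 12 tags) with summits 2 bp apart, 1 sample of each stage.

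The other voltage-gated potassium channel genes with a peak were Kcnh5, Kcnq5 and Kcnv1, which makes 4 of 40 genes of this class. Kcnh5, an ether-à-go-go type channel, had a peak at -16.0 kb in OLP B (fold 10.1, 12 tags) and another at -49.6 kb in iOL A (fold 14.4, 8 tags), at different sites. Kcnq5, which carries an M-type current, had 1 peak in OLP A and Kcnv1, a silent subunit, 1 peak in iOL B at 4.72 kb downstream of the start, inside an intron of the gene. Inward rectifier and tandem-pore channels had 2 of 29 genes, and Kcnj16, a rectifier subunit of glia and kidney, had peaks at -39.9 and -39.2 kb in OLP A (fold 12.2 each) and at -13.2 kb in iOL A (fold 19.6, 10 tags). Kcnk12, a tandem-pore subunit, had 1 peak in iOL A at -10.2 kb. Calcium- and sodium-activated channels had 1 of 12 genes, Kcnn2, a small-conductance channel, in iOL B. Auxiliary genes had 2 of 13, the beta subunit Kcne2 in OLP A and Kcnip4.

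Kcnip4 was the 1 channel gene with peaks in both iOL and neither OLP sample, beside 1.72% of all listed genes. It encodes a calcium-binding partner of Kv4 channels. Its peaks lay at -6.22 kb (fold 13.6, 8 tags) and -42.0 kb (fold 12.4, 7 tags) in iOL A and at -18.2 kb (fold 8.46, 11 tags) in iOL B. All 3 were at different positions and all fell in introns of Kcnip4 in the GENCODE annotation, where the gene has several start sites. With at least 10 tags per peak 0 genes were left in both iOL samples only.

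Sodium channels had 4 of 18 genes. Scn7a, an atypical channel that senses sodium in glia, had a peak at -25.5 kb in OLP A (fold 17.0, 7 tags) and at -3.44 kb in iOL A (fold 12.4, 7 tags). Scn3b followed Kcns2 and Gabrg1 in iOL A with a fold of 19.9 on 9 tags, at -11.3 kb. Scn8a, the main channel of nodes of Ranvier, had the lowest fold of these genes in iOL A, 6.44 with 16 tags, over a 329-bp peak at -3.60 kb of its RefSeq start and at -66.3 kb of its nearest GENCODE start. Scn1a, a channel of inhibitory neurons, had 1 peak, in OLP B (fold 7.88, 12 tags, -38.1 kb).

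Calcium channels had 2 of 26 genes. Cacnb2, a beta subunit that brings the channel pore to the membrane, had peaks in both OLP samples and in neither iOL sample. OLP A had peaks at -20.3 kb (fold 11.0, 8 tags) and at -41.3 kb of another start site (fold 9.72, 7 tags), and OLP B had one 3.73 kb downstream of yet another start (fold 7.88, 10 tags). The 3 peaks were at different sites. Cacna2d3, an alpha2delta subunit, had 1 peak in iOL A at -40.3 kb (fold 14.9, 10 tags). Gabra6 was the other gene with peaks in both OLP and neither iOL sample, which makes 2 of 32 genes beside 3.29% of all listed genes, and with at least 10 tags per peak this count was 0.

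Ionotropic glutamate receptors mediate fast excitatory transmission. Kainate receptors had 2 of 5 genes with a peak, AMPA receptors 1 of 4 (Gria4, OLP A), and NMDA receptors 0 of 7, the single class of 16 with no listed peak. Of all protein-coding RefSeq genes 16.0% had a listed peak, and no class was tested against this share. Classes of this size are too small to be told apart by such counts. The NMDA subunit gene Grin2d was named only as the second gene of a peak in OLP A (-36.4 kb, fold 9.72, 9 tags), and second genes were not counted. Among delta receptors, Grid1 had 1 peak, in OLP A at -17.5 kb. Grik2 had peaks in all 4 samples but not at 1 site. OLP A (fold 14.6, 7 tags) and iOL A (fold 14.9, 7 tags) shared the site at -49.4 kb with summits 4 bp apart, while OLP B had a peak at -47.8 kb (fold 7.88, 9 tags), iOL B at -28.5 kb (fold 11.6, 11 tags) and iOL A another at -30.4 kb (fold 14.9, 8 tags). Grik4, a high-affinity kainate subunit, had 1 peak in iOL A, which lay in an exon of the neighbouring gene Arhgef12.

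Grm5, a metabotropic receptor coupled to calcium release, was the 1 of 8 genes of its class with a peak and the 1 gene found in 3 samples. Its site at about -30 kb (mm9, chr7:94702032-94702385) had a fold of 21.9 with 9 tags in OLP A, 17.2 with 9 tags in iOL A and 7.87 with 11 tags in iOL B, and no peak in OLP B. The summits spanned 208 bp, and the iOL A peak lay beside the other two rather than on them. A second OLP A peak lay at -33.3 kb (fold 17.0, 7 tags). The distances are to the RefSeq start the authors used, and to the nearest GENCODE start of Grm5 the 3 peaks of the shared site lay between -48.8 and -48.6 kb and the second OLP A peak at -51.5 kb.

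GABA-A receptors, chloride channels opened by GABA, had 6 of 19 genes with a peak, beside 16.0% of all protein-coding RefSeq genes. This was the most genes of any class, and their 13 peaks were also the most. The site of Gabrg1 (mm9, chr5:71250534-71250945, intergenic) held 7 of them, in 2 neighbouring groups. At -16.8 kb the fold was 21.9 with 10 tags in OLP A, 34.7 with 17 tags in iOL A and 19.0 with 20 tags in iOL B, and OLP B had no peak. At -16.9 kb it was 29.4 with 15 tags in OLP A, 27.0 with 35 tags in OLP B, 18.7 with 17 tags in iOL A and 12.1 with 29 tags in iOL B. The OLP B peak had the most tags of the 7 channel and receptor peaks of that sample and stood at rank 70 of 7827 among all its peaks by fold enrichment, and the right-hand group alone was found in all 4 samples.

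**Figure D3:**
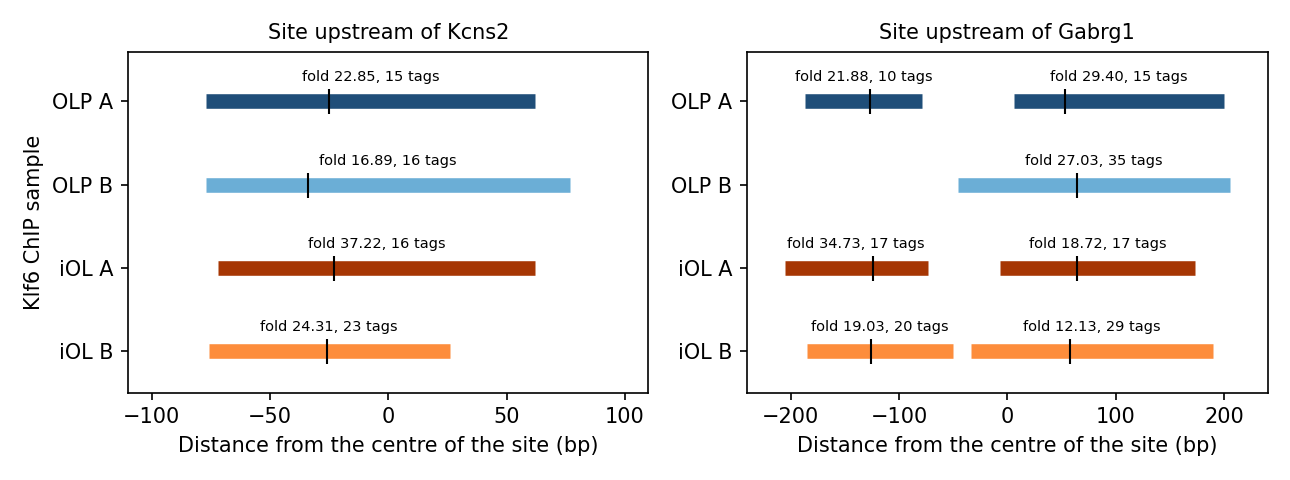
Bars show each sample's peaks at the Kcns2 (left) and Gabrg1 (right) sites in bp from the centre of the site, with a tick at each summit and its fold enrichment and tags above. The 4 Kcns2 summits lie within 11 bp, and the Gabrg1 site has 2 groups of peaks of which OLP B has the right-hand one.

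The remaining GABA-A genes described here encode alpha subunits and epsilon. Gabra6, the alpha subunit of cerebellar granule cells, had a peak at -1.96 kb in OLP B (fold 7.88, 11 tags) and another at -14.0 kb in OLP A (fold 11.9, 7 tags), at different sites. Gabra5, the alpha subunit of extrasynaptic receptors in hippocampus, had a peak in iOL B at -4.88 kb (fold 8.46, 12 tags), Gabra4 one in OLP A at -18.2 kb and Gabre one in iOL A. Glra1, the glycine receptor alpha1 subunit, had 1 peak in iOL A, and its class had 1 of 4 genes.

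Nicotinic receptors had 2 of 16 genes with a peak, muscarinic 1 of 5 and serotonin 1 of 14, beside 16.0% of all protein-coding RefSeq genes. Of 16 nicotinic genes, the ganglionic beta4 subunit gene Chrnb4 had 2 peaks in OLP A and Chrna10, a subunit of cochlear hair cells, 1 in iOL B, the latter in an intron of Nup98. Chrm1, the M1 receptor and 1 of 5 muscarinic genes, had a peak at -26.9 kb in OLP A (fold 14.6, 7 tags) and at -36.0 kb in iOL A (fold 11.4, 8 tags), the latter over an exon of Slc22a6. Htr2c was the 1 of 14 serotonin receptor genes with a peak, in iOL A at -37.8 kb with a fold of 17.4 on 7 tags.

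The 21 genes found in a single sample were unevenly spread, with 8 in OLP A, 1 in OLP B, 8 in iOL A and 4 in iOL B. The A samples also had the most peaks of all kinds. This split was not computed for all listed genes found in 1 sample, so whether it is particular to channel and receptor genes is not known. Apart from Kcns2, Gabrg1 and Scn8a, no gene had a peak with more than 13 tags. The FDR that the peak caller gave reached 3.77% for a channel or receptor peak.

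Nearly all of the peaks were far from the promoter. Only the Gabra6 peak, 1 of 61 (1.64%), lay within 2 kb of a start, where 5.04% of all listed peaks did. Between -15 and +5 kb, the interval the study used, lay 12 of 61 peaks (19.7%), beside 38.8% of all listed peaks, and 49 lay further upstream. The median distance was -24.4 kb beside -20.1 kb. On the GENCODE annotation 48 peaks were intergenic, 10 intronic and 3 exonic, and 9 were inside the gene they were assigned to. The same was not computed for all listed peaks, so these counts have no background here.

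**Figure D4:**
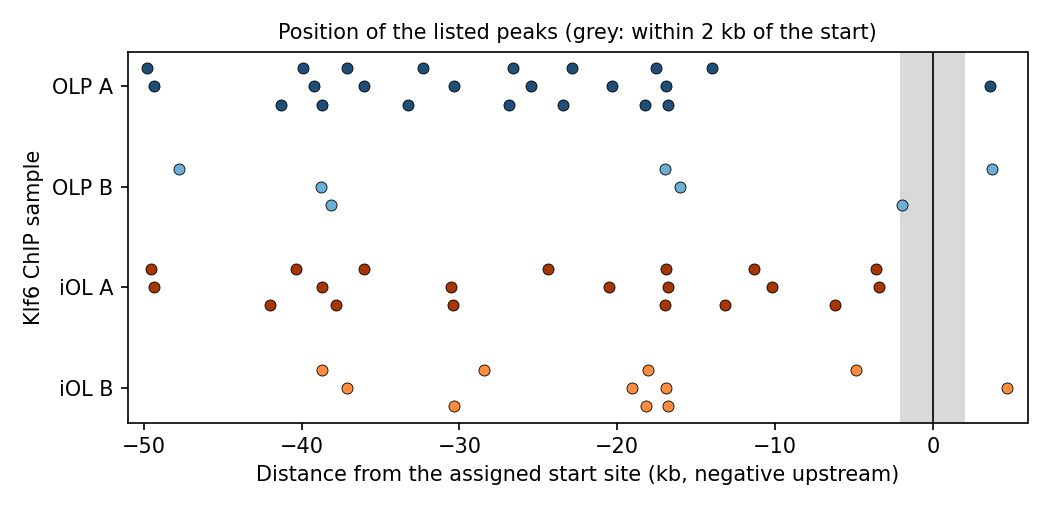
Each point is a listed peak of a channel or receptor gene, placed by its distance in kb from the assigned start site, by sample, with the interval within 2 kb in grey. 1 of the 61 points, in OLP B, lies in the grey band.

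The peaks were mostly over repeated sequence, and all that recurred were. The number of times each 20-base stretch of a peak occurs in the mm9 genome, on either strand, had a median over the stretches of 2954 for the typical channel or receptor peak and of 2102 for the typical listed peak. This median was at least 100 for 44 of the 61 peaks (72.1%, beside 69.0% of all listed peaks), and 1 for 10 peaks (16.4%, beside 14.8%). All 18 peaks at the 5 sites found in more than 1 sample had a median count of at least 2954. The Kcns2 main site had 3433 to 3541 and the Gabrg1 site 9236 to 10664. Among all listed peaks the unique share fell from 25.5% at sites in 1 sample to 1.24% at sites in 4 samples, so the pattern was not particular to channel and receptor genes. Reads from such sequence can map to several places, how they were assigned is not given in the sources used here, and its part in the recurrence was not tested.

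**Figure D5:**
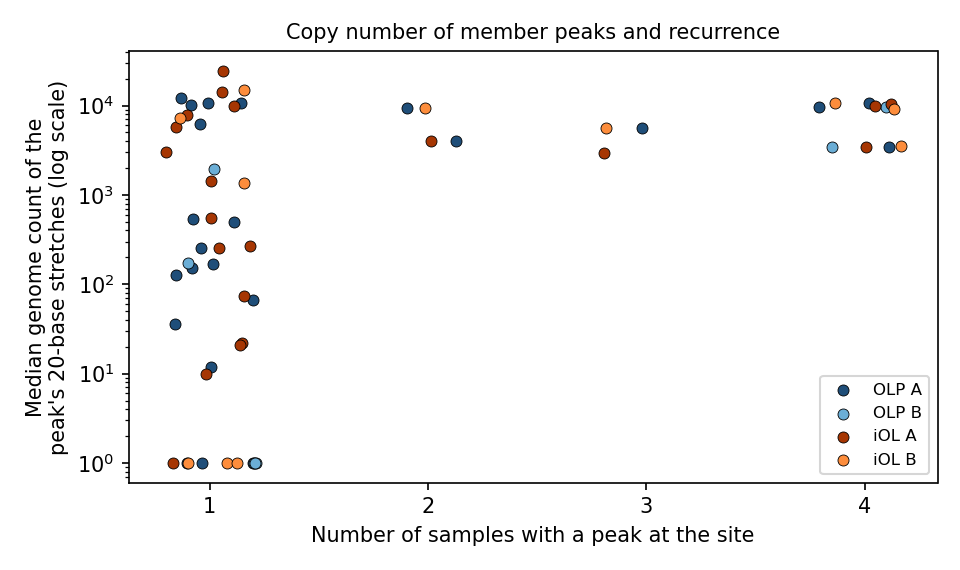
Each point is a channel or receptor peak, placed by how many samples have a peak there and by the median genome count of its 20-base stretches (log scale), coloured by sample. The 10 peaks with a count of 1 are at sites of 1 sample, and the sites of 2, 3 or 4 samples lie between 2954 and 10664.

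Sequence was also shared between genes. Of the genes, 11 had a peak with a run of at least 20 bases in common with a peak of another of them, in 12 pairs of genes, among 60 peaks of 31 genes compared (Kcnn2 was not compared). The same count was not made for other listed genes, so whether 11 is unusual is not known. Some runs were simple repeats, such as the CT and GT letters shared by Htr2c and Kcnj16. The longest described here were 69 bases between Gabrg1 and Scn3b, and 36 each for Gria4 with Kcns2 and for Grik2 with Grm5. The members of each of these pairs are genes of different classes on different chromosomes. No repeat annotation was used here, so the repeats are not named.

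The 10 unique peaks belonged to 9 genes, among them Cacnb2, Chrm1, Chrna10, Gabra5, Gabra6, Kcnq5, Kcnv1 and Scn1a. They had 7 to 12 tags and folds of 6.34 to 12.2, and 0 of the 10 had a peak of any other sample within 500 bp. Of all 1160 unique listed peaks, 1084 were likewise at sites found in 1 sample, so this was not particular to channel and receptor genes. Of the 7 peaks within 5 kb of a start, 5 were unique (among them those of Cacnb2, Gabra5, Gabra6 and Kcnv1), and the other 2 were those of Scn7a and Scn8a in iOL A. The unique share of all listed peaks within 5 kb of a start was not computed, so 5 of 7 has no background here. Cacnb2 alone had unique peaks in both replicates of a stage, at different sites.

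Few summits held the GC-rich letters that Krüppel-like factors are known for. Median GC content over the peaks was 37.6%, beside 38.2% for all listed peaks. The letters GGGCGG were within 100 bases of the summit, on either strand, in 1 of 61 peaks (1.64%, the Cacna2d3 peak) beside 0.942% of all listed peaks. The letters CACCC were in 17 of 61 (27.9%) beside 20.0%, and 8 of the 17 were peaks of the Kcns2 and Gabrg1 sites. The absence of these letters says only that they are not in this window.

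At the outer border of the assignment, members just inside included Kcnh5 at -49.6 kb and Grik2 at -49.4 kb. Just beyond it, 5 peaks of 4 further genes of these families (Cacna1a at -50.5 kb, Kcnd2, Chrna6 and Grm8) lay within 55 kb of a start on the GENCODE annotation and were not counted. Downstream, Kcnv1 at 4.72 kb was the last inside and Kcnab1 at 6.46 kb the next outside.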

How the data were processed

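Klf6 ChIP-seq peak lists of 4 samples (2 OLP, 2 iOL) were analysed, and the 4 input samples were not used here beyond their part in the peak calls. By the study's methods and the submitters' processing notes, the authors called bases with CASAVA 1.8, dropped reads of low quality and mapped the rest to mm9 (Bowtie2). MACS then gave peaks for each ChIP sample relative to input, and RefSeq starts supplied the gene and the distance. The MACS version, read length, aligned read numbers and handling of reads that map to several places are not given in the sources used here, so depth is known only through tags in peaks (105081 to 152149 per sample). With a median of 8 to 13 tags, a peak that is missing from a list may have gone undetected at this depth. In the deposited lists, tags are raw counts per peak, the score is -10*log10(p) (10 times the -log10 of a p-value), the fold enrichment is a ratio over background, and the FDR is in percent. None was normalised between samples.

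Genes were matched by the symbol that the deposited lists give, with Htra, Grina, Gripap and Grinl symbols left out. The genes, classes and tests were chosen with earlier results of these data known. Genes named with values are those in 3 or 4 samples, those in both replicates of 1 stage only, those with a peak within 2 kb of a start, those holding the 3 highest folds or most tags of a sample, and family genes in the study's Klf6-silencing tables, where Gabrg3 is listed. Other members are named with their class (values printed for some of them were chosen after they were seen), and 2 members are in all counts but are not reported by name here. Gaps of at most 500 bp joined peaks into sites. Numbers of genes were compared between stages with an exact permutation test over samples, and all other shares are descriptions with 95% Wilson intervals. Sequence and copy number were read from the NCBIM37 (mm9) genome. Peaks with over 50% of their 32-base stretches at more than 1 place counted as repeated. RefSeq gene counts are from the GRCm38.p6 table, used for names only, in which all 32 genes matched, and no protein sequences were used. Site joining recovered 270 of 270 planted pairs and the copy count 50 of 50 in simulated data. Alternatives were the -15 to +5 kb interval, a minimum of 10 tags, a minimum score of 50, an FDR under 5%, subunits and receptors only, literal symbol prefixes, no repeated peaks, other gaps, each replicate left out and a replicate block. Software was scipy 1.17.1, pandas 2.3.3, numpy 2.4.6, pysam 0.24.0, matplotlib 3.10.9 and numba 0.67.0 under Python 3.11.15.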

Additional observations from a re-analysis of the deposited data

Results flagged for a closer look

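Family genes also appeared where the counts above do not look. In 19 peaks, 12 genes with family symbols, Kcnrg and Scnm1 among them, were given only as the second of 2 genes and so were not members. The same count over all genes was not made, so whether 12 is unusual is not known. Kcnt2, a sodium-activated potassium channel, was such a second gene in all 4 samples at -46.4 kb, with folds of 38.9 in OLP A, 10.1 in OLP B, 47.1 in iOL A and 12.9 in iOL B over 9 to 21 tags. This is higher in OLP A and iOL A than any member peak of the same sample. The stretches of these 4 peaks had a median genome count of 11637 to 15211.

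Peaks with no listed gene lay inside the bodies of family genes, far from their starts. Of 225 family gene bodies in GENCODE, 53 held 210 peaks, of which 197 had no listed gene. Of the 154 sites in these bodies, 7, all unlisted, were found in all 4 samples, 3 in Grik2 and 1 each in Gabrg3, Gria2, Grm8 and Kcnt2. The 5.18% of listed sites found in all 4 samples is for a different kind of site. Shares over unlisted sites and over the bodies of all genes were not computed, so these counts have no background here. At 1 of the Grik2 sites (chr10:48999283-48999445) the fold was 31.6 in OLP A, 15.8 in OLP B, 57.1 in iOL A and 21.1 in iOL B. The Gabrg3 site (chr7:64324984-64325241) had folds of 46.2, 9.51, 14.5 and 8.54 with 22, 19, 13 and 24 tags in the same order, and Gabrg3, the 1 family gene in the study's Klf6-silencing tables, had 0 listed peaks. The median genome count over the peaks of these 7 sites was 9363. The Gabrg3 peaks had lower counts, 20 (OLP A), 171 (OLP B) and 41 (iOL B), with 3338 for the peak of iOL A. No input track was used here, so whether input was also high at these places was not tested.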

How the results depend on the processing

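The difference in the number of channel and receptor genes was -1 (OLP minus iOL). Where 2 samples a stage remained, its exact permutation p was at least 0.333, the smallest that 2 against 2 can give. That bound was fixed by the sample numbers. The difference was -4 with at least 10 tags, 0.5 without peaks in repeated sequence and 0 for subunits and receptors only. It was -6 to 4 with each replicate left out, positive without OLP replicate B (4) or iOL replicate A (3). The difference in share stayed negative under all 12 alternatives, from -0.395 to -0.0708 percentage points with a replicate left out and was -0.633 with at least 10 tags. With the replicate letter as a replicate block the differences were the same, -1 gene (exact sign flips, p = 1) and -0.233 percentage points (p = 0.5). The labels give the letters no meaning beyond the replicate, so same-letter samples were not treated as pairs. The deviations of same-letter samples from their stage means had a correlation of 0.0254 over 3888 listed genes. These genes were chosen for a peak in at least 1 sample, and most had one in 1 sample only. The value therefore cannot show whether the letters mark pairs.

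Genes in all 4 samples (3) were 0 in the -15 to +5 kb interval and 0 without repeated peaks, 2 with at least 10 tags, 2 with a score of at least 50, and 3 to 4 over the remaining samples with a replicate left out. Sites in all 4 samples (2) were 0 without repeated peaks, 2 to 3 with a replicate left out, and 2 under the other gaps and limits. Genes in both OLP samples only (2) were 1 in the narrower interval, 0 with at least 10 tags, 0 with a score of at least 50, 1 without repeated peaks, and 2 to 10 with a replicate left out, 10 of them without OLP B. Genes in both iOL samples only (1) were 0 under each of these 4 and for subunits and receptors only, and 1 to 9 with a replicate left out (2 without OLP A, 5 without iOL A, 9 without iOL B). Literal prefixes changed nothing, since no such symbol had a listed peak. Aligned read numbers are unknown, so how far depth limits these counts was not tested.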

Other observations

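Over the bodies of channel and receptor genes, peaks were sparser than over the genome in all 4 samples, at 2.34, 2.07, 1.66 and 1.05 per Mb in OLP A, OLP B, iOL A and iOL B, beside 4.69, 2.95, 3.85 and 2.18 per Mb over the genome. These values are a description with no test. The density over the bodies of all genes was not computed, so the lower values are not shown to be particular to channel and receptor genes.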
